A study of Mus musculus with 24 samples.

Results

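The genotype comparison at day 3 of RANKL set 3 RNA-seq libraries of STING-deficient (KO) bone marrow cultures against 3 libraries of wild-type (WT) cultures. They are 6 of the 24 libraries of the series, chosen by their labelled genotype and day alone. Bone marrow came from female mice 10 to 12 weeks old and was grown for 72 h in 40 ng/mL mCSF (macrophage colony-stimulating factor) to give osteoclast precursors. The KO group held mice 481, 528 and 532 and the WT group mice 480, 529 and 531, each plated at 25000 cells per well and cultured with 10 ng/mL RANKL and 20 ng/mL mCSF until day 3. Libraries of days 2 and 4, from the same mice, had these same conditions. Day 0 libraries, called before RANKL below, were precursors in 40 ng/mL mCSF without RANKL, with no plating density given. Wells of 1 mouse were pooled into 1 library, so the replicate is the mouse, and KO and WT libraries come from different mice. The labels do not describe the STING allele of the KO mice, and they do not state whether KO and WT mice were littermates.

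RANKL is the cytokine that turns macrophage precursors into osteoclasts, the multinucleated cells that resorb bone. It acts through the receptor RANK and the transcription factors NF-kB, Fos and Nfatc1, and around the sampled time mononuclear precursors fuse. STING is the membrane adaptor through which DNA in the cytosol, sensed by cGAS, switches on type I interferon genes, and interferon signalling is known to restrain osteoclast formation.

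Of the 10721 genes in the table, 9360 had a mean of at least 1 FPKM (fragments per kilobase of transcript, scaled to the size of the library) in either group and were tested as log2(FPKM + 1). Below, a log2 difference is the KO mean minus the WT mean on that scale, and for genes near or under 1 FPKM it comes out smaller than the fold change. The 6 libraries were close to each other. Correlations across genes ran from 0.988 to 0.995 between KO and WT libraries, and the median spread between replicates of 1 gene was 0.0949 (SD, log2 scale). Summed FPKM ran from 492243 to 530196 in KO and from 482038 to 494754 in WT libraries. Read depth was not known. Low FPKM values in a library go up in steps that are larger the fewer fragments it has, and relative to WT mouse 480 the step was 0.997 to 1.04 in the KO libraries, 0.998 in WT mouse 529 and 1.45 in WT mouse 531, an estimate of lower depth there that rests on 13 of 88 low genes compared. Because these are bulk cultures, fewer cells of a type and less RNA per cell cannot be told apart.

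Osteoclast markers were strongly present in both genotypes. The 10 markers summed to 25893 to 28189 FPKM in KO and 23584 to 25577 FPKM in WT libraries, led by Acp5, the tartrate-resistant acid phosphatase. Macrophage and monocyte markers, 12 of 14 in the table, summed to 2478 to 2922 FPKM in KO and 2549 to 2840 FPKM in WT, most of it Cd68. Neutrophil markers (10 of 12 in the table) summed to 106 to 173 FPKM in KO and 78.2 to 170.4 FPKM in WT. Of T and NK cell markers 1 of 12 was in the table, of endothelial markers 1 of 5 and of mast cell and basophil markers 5 of 7. Each of these lists summed to at most 1.01 FPKM in KO and 1.04 FPKM in WT libraries. With 1 marker listed, absence of T, NK or endothelial cells cannot be read from this. B cell markers (8 of 11) summed to 30.0 to 35.3 FPKM in KO and 30.0 to 38.6 FPKM in WT. Dendritic cell markers (8 of 10) summed to 50.3 to 57.9 FPKM in KO and 55.9 to 58.6 FPKM in WT. For erythroid and megakaryocyte markers (7 of 11) the sums were 10.9 to 23.2 FPKM in KO and 14.6 to 25.5 FPKM in WT.

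Sting1, listed as Tmem173 and lying at chr18:35733678-35740554 (GRCm38), measured 3.76, 3.79 and 3.19 FPKM in KO cultures and 4.03, 4.69 and 4.58 FPKM in WT cultures. All KO libraries lay below all WT libraries, but the gap was small: the log2 difference was -0.25 (SE 0.0869, 95% interval -0.44 to -0.05, unadjusted p = 0.0194, limma adjusted p = 0.924). Transcript was thus still listed in every KO library, and its level does not separate the genotypes at this day by the test used. The wider gap was before RANKL, where the KO libraries measured 5.08, 4.57 and 4.89 FPKM and the WT libraries 28.7, 25.4 and 21.3 FPKM.

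Only 3 of the 9360 genes passed a limma adjusted p of 0.05 (0.0321%). Stard4 and Gm8615 rose (0.0214%) and Mir221 fell (0.0107%) in KO cultures. At an unadjusted p under 0.05 there were 237 genes (2.53%). KO libraries all lay above all WT libraries in 379 genes (4.05%) and all below in 305 (3.26%), so 684 genes (7.31%) did not overlap between the groups. Log2 differences were above 0 in 4744 genes (50.7%) and below 0 in 4616 (49.3%), and the median over all genes was 0.00.

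Mir221, the precursor of the microRNA miR-221 on chromosome X, was listed at 0 in all 3 KO libraries, against 87.9, 58.4 and 42.6 FPKM in the WT libraries of mice 480, 529 and 531 (limma adjusted p = 4.83e-06). A microRNA recognises its targets mainly by its seed, bases 2 to 8, and targets of miR-221 include the cell cycle inhibitor gene Cdkn1b. The mature forms of RefSeq (GRCm38, minus strand of chromosome X) are given with the seed in capitals, beside miR-222-3p of the neighbouring hairpin, which has the same seed.
mmu-miR-221-3p: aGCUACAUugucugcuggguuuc
mmu-miR-222-3p: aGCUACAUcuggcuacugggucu
mmu-miR-221-5p: aCCUGGCAuacaauguagauuucugu
Mir222 was not analysed here, and these libraries do not measure the mature forms separately. Its entry is only 95 bases long. Scaled by the step sizes of the libraries, the WT values came to 3 steps of 29.3 FPKM in mouse 480, 2 steps of 29.3 FPKM in mouse 529 and 1 step of 42.6 FPKM in mouse 531. The size of a Mir221 step was itself chosen to bring the Mir221 values nearest to whole steps, so whole counts were partly built in. Whether a step is 1 fragment is not known. On other days the order was not kept. Mir221 was listed at 0, 30.5 and 0 FPKM in KO and at 0 in all 3 WT libraries before RANKL, at 27.0, 0 and 0 FPKM in KO and 83.4, 0 and 53.4 FPKM in WT at day 2, and at 33.3, 32.1 and 67.3 FPKM in KO and 0, 62.2 and 31.8 FPKM in WT at day 4. With all 24 libraries in the fit the day 3 call was lost (limma adjusted p = 1.0, and 1.0 with the mouse as a replicate block).

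Stard4 encodes a soluble carrier that moves cholesterol between membranes, and its gene lies at chr18:33199138-33213862. It measured 8.60, 7.88 and 8.61 FPKM in KO cultures and 5.17, 4.77 and 4.66 FPKM in WT cultures. The 3 KO values sat close together and well above the WT values, with a log2 difference of 0.67 (SE 0.0719, limma adjusted p = 0.0211). The gap was present on the other RANKL days, with log2 differences of 0.68 at day 2 and 0.68 at day 4, and smaller before RANKL (0.20). The call did not hold without any 1 of KO mice 481, 528 or 532 or without WT mouse 529 or 531 (adjusted p = 0.056 to 0.177), although the log2 difference stayed between 0.65 and 0.71. It also missed the threshold with all 24 libraries in the fit (limma adjusted p = 0.069), with the mouse as a replicate block (0.131) and without a filter on low values (0.0722). With all 24 libraries and samples weighted by day Stard4 passed (limma adjusted p = 0.000223).

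Gm8615 is annotated by GENCODE as a transcribed processed pseudogene, on chromosome 5. Its level was between 2.12 and 2.34 FPKM in the 3 KO cultures, against 0, 0.022 and 0.0321 FPKM in WT cultures. It was thus nearly a presence-or-absence difference, with a log2 difference of 1.66 (SE 0.0827, limma adjusted p = 5.01e-05), and it was also seen on the other days (2.79 before RANKL, 1.44 at day 2 and 1.92 at day 4). Over 753 aligned bases the longer Gm8615 transcript was 99.1% identical to Gnpda1, a glucosamine-6-phosphate isomerase gene on chromosome 18, at chr18:38327537-38338993. Reads of the pair can be split between them, so the Gm8615 value is uncertain. Gnpda1 starts 2.59 Mb from Sting1, within the stretch of chromosome 18 described below. Whether that position bears on the Gm8615 difference was not tested. Gnpda1 itself measured 33.4, 34.5 and 41.4 FPKM in KO cultures and 31.8, 39.0 and 38.9 FPKM in WT cultures, which overlap.

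**Figure D1:**
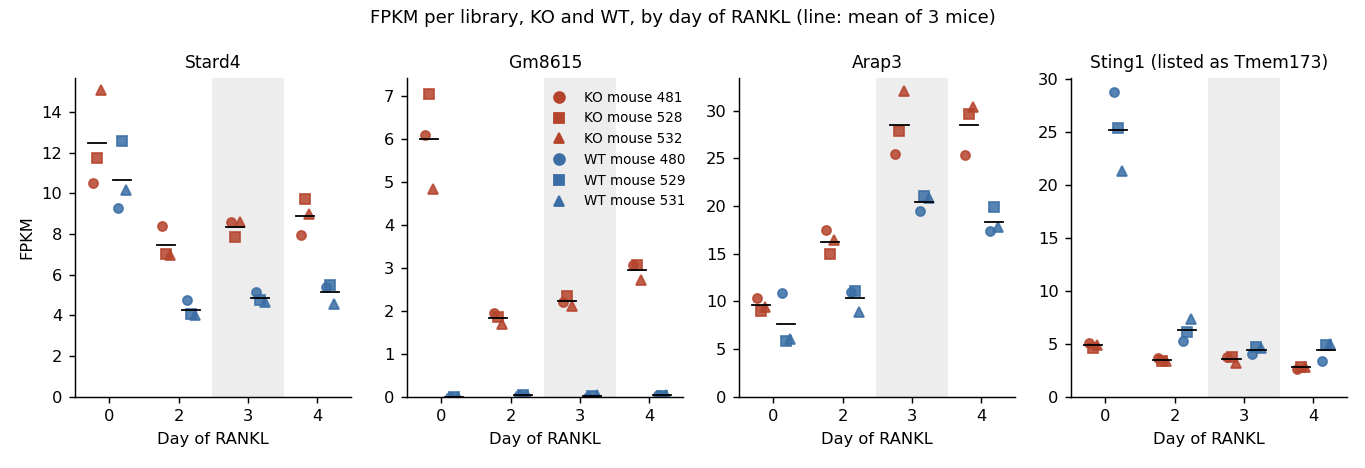
FPKM (linear axes) of Stard4, Gm8615, Arap3 and Sting1 in every library by day of RANKL, with KO left of WT within each day, symbols for the mice and black lines for the means of 3 mice. At day 3 (grey band) Stard4 lay at 7.88 to 8.61 FPKM in KO and 4.66 to 5.17 FPKM in WT, while Sting1 lay at 3.19 to 3.79 FPKM in KO and 4.03 to 4.69 FPKM in WT.

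Stard4 lies 2.53 Mb from Sting1, and other genes of that stretch of chromosome 18 also had KO and WT libraries apart. Among the 60 tested genes within 5 Mb of Sting1, without Sting1 itself, 9 lay wholly above and 6 wholly below WT, while 7.16% of the 9068 genes on other chromosomes were apart in either direction. Log2 differences beyond 0.25 in either direction were found for 6 of the 60 genes (10.0%), against 1.79% on other chromosomes. The direction was mixed, with 34 of 60 above 0 and a median of 0.02, and 1 of the 60 passed the test, which was Stard4. Over all 231 tested genes of the chromosome without Sting1, 11.7% did not overlap.

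Arap3, a phosphoinositide-regulated GTPase-activating protein, measured 25.4, 27.9 and 32.1 FPKM in KO cultures and 19.5, 21.0 and 20.9 FPKM in WT cultures (log2 difference 0.45, SE 0.085, limma adjusted p = 0.924). Its KO libraries were all above its WT libraries on the RANKL days, with log2 differences of 0.61 at day 2 and 0.60 at day 4. Bin1, a membrane-bending BAR domain protein, measured 33.0, 36.2 and 28.4 FPKM in KO and 24.6, 27.2 and 26.1 FPKM in WT (0.31, SE 0.0881). Cd14, the lipopolysaccharide co-receptor of macrophages, measured 35.9, 36.6 and 32.9 FPKM in KO and 24.8, 32.0 and 28.8 FPKM in WT (0.30, SE 0.0917). Of the other 7 macrophage and monocyte markers tested, 6 were below 0 and 1 above. Cdc23, a subunit of the anaphase-promoting complex, measured 11.2, 11.2 and 10.7 FPKM in KO and 9.63, 9.29 and 9.35 FPKM in WT (0.21, SE 0.0611). Hbegf, a growth factor of the EGF family, measured 8.57, 11.4 and 9.28 FPKM in KO and 8.33, 7.89 and 7.65 FPKM in WT (0.26, SE 0.0983). None of these 5 genes passed (limma adjusted p = 0.924 each), although their groups did not overlap. All 5 were higher in KO, whereas the 6 neighbours wholly below WT had log2 differences from -0.20 to -0.11 and did not pass either. A position near the altered gene and the loss of STING cannot be told apart as sources of these differences in this design.

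**Figure D2:**
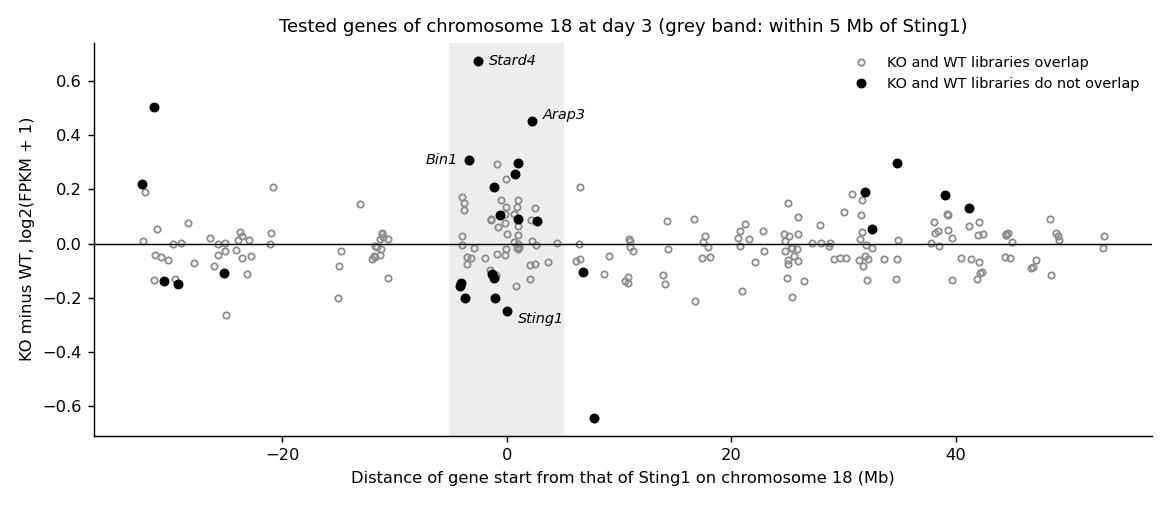
Log2 difference (KO minus WT at day 3) of each tested gene on chromosome 18 against its distance in Mb from Sting1, with filled points where KO and WT libraries do not overlap and open points where they do. Within 5 Mb (grey band) 15 of the 60 neighbours are filled, and Stard4 (0.67) and Arap3 (0.45) lie highest.

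The interferon-stimulated genes tested at day 3 were, as a list, slightly lower in KO. Their mean log2(FPKM + 1) was 2.92 to 3.16 in KO and 3.02 to 3.30 in WT libraries, against 4.05 to 4.07 for all genes tested. Of 87 listed genes, 81 were in the table and 51 reached the filter of 1 FPKM, and among those 51 the log2 difference was below 0 for 45 and above 0 for 6, with a median of -0.13 beside 0.00 for all genes. A member with a KO mean under 1 FPKM was tested only if its WT mean reached 1 FPKM, which favours a value below 0. Such members were not counted apart. No member passed the test, all KO libraries lay below all WT libraries for 2 of the 51 (3.92%, against 3.26% of all genes) and for no member did they all lie above. The 30 members under the filter stayed at or below 1.11 FPKM in every day 3 library, although 26 of them averaged at least 1 FPKM in WT precursors before RANKL. Before RANKL, all 51 tested members were below 0 (median -0.50), and at days 2 and 4 the medians were -0.07 and -0.21.

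Irf7, the transcription factor that amplifies type I interferon production, measured 0.681, 1.24 and 0.897 FPKM in KO cultures and 1.26, 2.27 and 1.91 FPKM in WT cultures. The groups just failed to overlap, and the log2 difference was -0.53 (SE 0.154, unadjusted p = 0.00738, limma adjusted p = 0.924). Irf7 passed the filter only through its WT mean (1.81 FPKM, against 0.939 FPKM in KO). Isg15, a ubiquitin-like protein conjugated to targets during the interferon response, measured 1.56, 2.24 and 0.845 FPKM in KO and 2.31, 2.15 and 3.46 FPKM in WT (-0.54, SE 0.204). Here KO mouse 528 lay above WT mouse 529, so the groups overlapped. Rtp4, a chaperone-like protein that interferon induces, measured 1.88, 2.53 and 1.77 FPKM in KO and 3.63, 3.17 and 2.44 FPKM in WT (-0.41, SE 0.132). Oas2, which makes the second messenger that activates RNase L, measured 0.815, 1.23 and 0.985 FPKM in KO and 1.13, 1.91 and 1.78 FPKM in WT (-0.37, SE 0.134). The 4 genes had a limma adjusted p of 0.924 each.

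Mouse-to-mouse spread in this list was wider than the gap between the genotypes. The median deviation of the 51 genes from their mean over the 6 libraries was -0.22, 0.01 and -0.04 in KO mice 481, 528 and 532 and -0.10, 0.12 and 0.19 in WT mice 480, 529 and 531. KO mouse 528 therefore lay above WT mouse 480. Leaving out each library in turn gave medians of the log2 difference that were all below 0. They were -0.07 without WT mouse 531, -0.08 without KO mouse 481, -0.09 without WT mouse 529 and -0.23 without WT mouse 480.

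Lists of genes that act before and after interferon had smaller medians. The list of cytosolic nucleic acid sensing is wider than its name, since it holds the Toll-like receptor pathway genes Tlr3 and Myd88 beside Sting1. Of its 33 tested genes, 21 were below 0 (median -0.04), and none passed. Wholly below WT lay 3 (9.09%, against 3.26% of all genes) and wholly above 1 (3.03%, against 4.05%). Besides Sting1 the 2 wholly below were Tlr3, the endosomal receptor for double-stranded RNA, at 0.783, 0.808 and 0.802 FPKM in KO and 1.01, 1.09 and 1.09 FPKM in WT, and Myd88, the adaptor of Toll-like receptors, at 32.1, 32.0 and 31.4 FPKM in KO and 34.4, 34.6 and 35.4 FPKM in WT. Tlr3 passed the filter only through its WT mean (1.06 FPKM, against 0.798 FPKM in KO). Of 15 genes of type I interferon receptor signalling, 11 were below 0 (median -0.04) and none lay apart between the groups. Of 17 tested inflammatory cytokine and chemokine genes, 8 were above and 9 below 0 (median -0.01, and -0.12 to 0.05 leaving out each library), so the list did not lean. Its member Ccl5, which attracts T cells and monocytes and is induced by interferon, measured 0.25, 0.392 and 0.519 FPKM in KO and 0.754, 1.75 and 1.28 FPKM in WT (-0.69, SE 0.16, unadjusted p = 0.00207, limma adjusted p = 0.924). Ccl5 likewise passed the filter only through its WT mean (1.26 FPKM, against 0.387 FPKM in KO). Cxcl10, a ligand of Cxcr3, overlapped between the groups at 2.37, 2.19 and 1.89 FPKM in KO and 1.83, 2.61 and 3.73 FPKM in WT (-0.21, SE 0.166).

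Promoters of interferon-stimulated genes often carry the element that binds interferon-activated STAT and IRF complexes. Its core was searched as GAAA, any 2 bases and GAAA again, on both strands, overlapping matches allowed, in RefSeq promoters of 300 bases (250 before to 50 after the gene start, GRCm38). It was found in 19 of the 40 tested list members that have a promoter entry (47.5%), against 3.99% of the 27025 genes with one. The 19 members with the motif were all below 0 (median -0.21), and of the 21 without it 17 were (median -0.08), while the 271 tested genes of any kind with the motif had a median of -0.02. Since 11 of the 51 members have no entry, these medians cover only part of the list. The promoters of Isg15 and Cxcl10, members of the interferon and chemokine lists whose day 3 values are given above, are shown with the motif in capitals. Isg15 (chr4:156200769-156201068, minus strand) holds 3 overlapping matches, the first beginning 78 bases before the start, and Cxcl10 (chr5:92348840-92349139, minus strand) holds 1 match, 213 bases before it.
Isg15: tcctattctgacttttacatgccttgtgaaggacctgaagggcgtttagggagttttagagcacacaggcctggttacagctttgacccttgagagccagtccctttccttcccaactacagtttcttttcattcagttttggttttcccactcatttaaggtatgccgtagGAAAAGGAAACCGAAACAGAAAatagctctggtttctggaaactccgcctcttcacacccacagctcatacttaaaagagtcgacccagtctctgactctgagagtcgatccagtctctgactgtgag
Cxcl10: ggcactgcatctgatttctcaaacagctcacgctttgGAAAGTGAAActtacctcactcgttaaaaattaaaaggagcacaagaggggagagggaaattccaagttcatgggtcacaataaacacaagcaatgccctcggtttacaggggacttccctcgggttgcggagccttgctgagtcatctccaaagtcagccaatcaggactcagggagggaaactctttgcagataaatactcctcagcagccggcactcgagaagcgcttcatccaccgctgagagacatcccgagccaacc

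Osteoclast effector genes were at high levels in both genotypes, and as a list slightly higher in KO. Of 46 tested osteoclast effector genes, 33 were above and 13 below 0, with a median of 0.05 beside 0.00 for all genes. None passed the test. All KO libraries lay above all WT libraries for 6 of 46, against 4.05% of all genes, and below for 1 (2.17%, against 3.26%). The median was 0.02 without KO mouse 532, 0.03 without WT mouse 531 and 0.07 without KO mouse 481. Of the 10 osteoclast markers whose sums are given above, 9 were above 0 (median 0.12, and 0.04 without KO mouse 532) and 3 lay wholly above WT, and none passed. Among matrix-degrading genes, Acp5 measured 9607, 10725 and 10231 FPKM in KO and 8936, 9557 and 8584 FPKM in WT. The 3 KO libraries were all higher, but the 95% interval of the log2 difference ran from -0.08 to 0.43 around 0.17. Ctsk, the collagen-cleaving cathepsin K, measured 7791, 7951 and 7983 FPKM in KO and 7733, 7382 and 6964 FPKM in WT (0.11, 95% interval -0.13 to 0.34). Mmp9, a gelatinase, measured 6255, 6526 and 7347 FPKM in KO and 6175, 6315 and 5855 FPKM in WT (0.13, 95% interval -0.12 to 0.38).

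Of the fusion genes, 6 of 10 were above 0 (median 0.02). Dcstamp, the membrane protein required for precursor fusion, measured 405, 460 and 418 FPKM in KO and 403, 366 and 361 FPKM in WT. The groups touched but did not overlap, with a log2 difference of 0.18 (SE 0.0762, 95% interval 0.01 to 0.36, unadjusted p = 0.0409, limma adjusted p = 0.924). Ocstamp, its relative, measured 251, 246 and 259 FPKM in KO and 268, 228 and 221 FPKM in WT (0.08, 95% interval -0.10 to 0.26). Atp6v0d2, a proton pump subunit that also takes part in fusion, measured 1085, 1153 and 1356 FPKM in KO and 1136, 1201 and 1098 FPKM in WT (0.06, 95% interval -0.16 to 0.28). Both overlapped between the genotypes.

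Acid and ion transport genes were above 0 for 10 of 12 (median 0.05). Car2, the carbonic anhydrase that supplies protons, measured 169, 196 and 178 FPKM in KO and 156, 167 and 186 FPKM in WT (0.09, 95% interval -0.10 to 0.28). Clcn7, the chloride and proton exchanger of the resorbing membrane, measured 218, 227 and 255 FPKM in KO and 222, 229 and 235 FPKM in WT (0.03, 95% interval -0.14 to 0.19). The calcitonin receptor gene Calcr, a late marker, measured 32.8, 39.5 and 47.0 FPKM in KO and 30.5, 38.5 and 39.4 FPKM in WT (0.13, 95% interval -0.18 to 0.44). The integrin subunit gene Itgb3 measured 145, 138 and 152 FPKM in KO and 146, 138 and 135 FPKM in WT (0.05, 95% interval -0.09 to 0.19), and the co-receptor gene Oscar 168, 189 and 224 FPKM in KO and 157, 202 and 170 FPKM in WT (0.13, 95% interval -0.14 to 0.40). All 5 overlapped.

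Genes that drive the programme did not lean either way. Of 45 tested genes of RANK signalling and osteoclast transcription factors, 22 were above and 23 below 0 (median -0.01), and none passed. Nfatc1, the master transcription factor of osteoclasts, measured 153, 134 and 172 FPKM in KO and 169, 150 and 156 FPKM in WT (-0.05, 95% interval -0.27 to 0.16). Jund, an AP-1 subunit, measured 74.8, 74.1 and 74.3 FPKM in KO and 68.5, 71.6 and 66.2 FPKM in WT (0.11, SE 0.0553). Rel, an NF-kB subunit, measured 6.47, 5.46 and 8.82 FPKM in KO and 8.51, 7.88 and 9.49 FPKM in WT (-0.30, SE 0.142). Repressors of differentiation were below 0 for 16 of 22 (median -0.06), with no gene apart between the groups. Among them Irf8, which keeps precursors in the macrophage state, measured 1.99, 3.01 and 2.72 FPKM in KO and 2.38, 3.34 and 3.55 FPKM in WT.

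**Figure D3:**
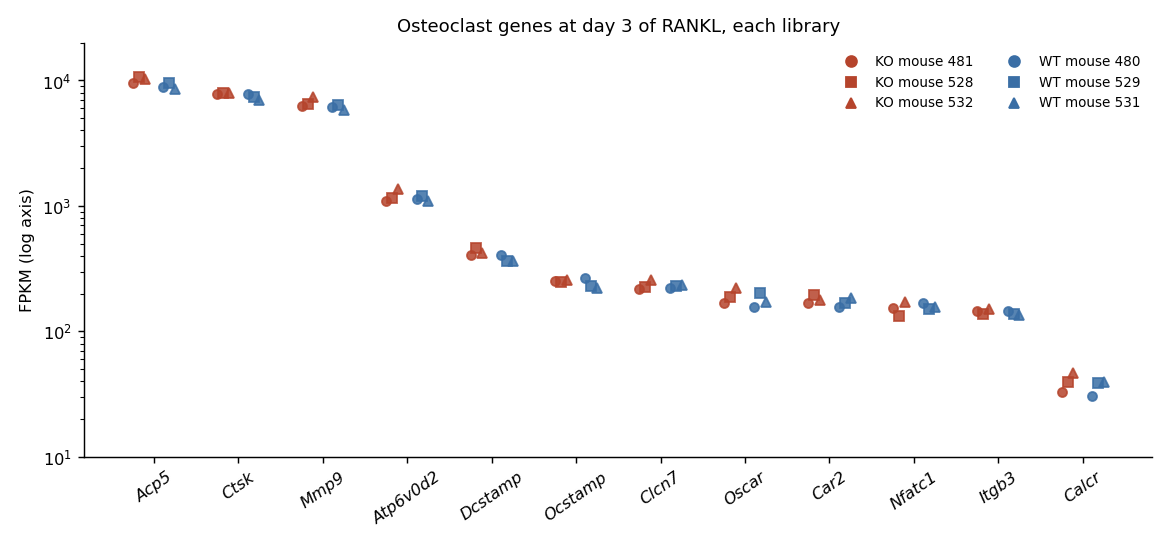
FPKM (log axis) of 12 osteoclast genes in each day 3 library, KO left of WT for each gene, with symbols for the mice. The groups lie side by side at each level, from Acp5 at 8584 to 10725 FPKM down to Calcr at 30.5 to 47.0 FPKM.

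Mitochondrial genes leaned to one side. All 73 tested subunits of oxidative phosphorylation were above 0 in KO, from 0.04 to 0.24, with a median of 0.13. No subunit passed the test. All KO libraries lay above all WT libraries for 13 of the 73 (17.8%, against 4.05% of all genes) and below for none (3.26% of all genes). The leaning covered each complex: 35 of 35 subunits of complex I (median 0.14), 4 of 4 of complex II (0.08), 9 of 9 of complex III (0.15), 10 of 10 of complex IV (0.15) and 14 of 14 of ATP synthase (0.12). Uqcrh, a hinge subunit of complex III, measured 672, 811 and 668 FPKM in KO and 633, 633 and 557 FPKM in WT (log2 difference 0.23, SE 0.0967, unadjusted p = 0.0386, limma adjusted p = 0.924). Ndufa10, a complex I subunit, measured 267, 291 and 272 FPKM in KO and 257, 260 and 228 FPKM in WT (0.16, SE 0.0729). Cox7a2, of complex IV, measured 478, 555 and 437 FPKM in KO and 434, 438 and 401 FPKM in WT (0.20, SE 0.0933), where KO mouse 532 lay just below WT mouse 529.

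The tricarboxylic acid cycle, which feeds the respiratory chain, had 18 of 19 genes above 0 (median 0.07), with 7 wholly above (36.8%, against 4.05% of all genes) and 1 wholly below WT (5.26%, against 3.26%). Mdh2, the mitochondrial malate dehydrogenase, measured 1189, 1333 and 1228 FPKM in KO and 1157, 1149 and 1054 FPKM in WT (0.16, SE 0.0811), and Fh1, fumarase, 130, 137 and 130 FPKM in KO and 121, 126 and 117 FPKM in WT (0.12, SE 0.0586). Glycolysis did not share the leaning, with 11 of 20 genes above 0 and a median of 0.00. Mitochondrial ribosomal protein genes were above 0 for 67 of 70 (median 0.09), with 9 wholly above WT (12.9%, against 4.05% of all genes). Without KO mouse 528 their median was 0.05 and without WT mouse 531 it was 0.06. Cytosolic ribosomal protein genes were above 0 for 73 of 75 (median 0.10), with 1 wholly above WT (1.33%). Their median was 0.03 without KO mouse 528, 0.07 without WT mouse 531 and 0.18 without KO mouse 532. Their median deviations were 0.07, 0.19 and -0.11 in KO mice 481, 528 and 532 and -0.02, -0.02 and -0.12 in WT mice 480, 529 and 531, so KO mouse 532 lay below 2 of the WT libraries. Of the mitochondrial ones, Mrpl44 measured 58.2, 60.4 and 57.9 FPKM in KO and 53.7, 53.1 and 49.9 FPKM in WT (0.17, SE 0.0568, limma adjusted p = 0.924).

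Lysosome and proton pump genes, which serve acid secretion, were above 0 for 39 of 50 (median 0.07), with 11 of 50 wholly above WT (4.05% of all genes were) and none wholly below (3.26% of all genes). Of 15 proton pump subunits, 14 were above 0 and 7 wholly above WT (median 0.10). Of 35 lysosomal hydrolases and membrane proteins, 25 were above 0 and 4 wholly above (median 0.05). The difference between those subsets was not tested. Atp6v0e measured 1051, 1154 and 1107 FPKM in KO and 1016, 965 and 954 FPKM in WT (0.17, SE 0.0741), and Atp6v1d 703, 743 and 690 FPKM in KO and 660, 653 and 593 FPKM in WT (0.16, SE 0.0736). Mcoln1, a lysosomal calcium channel, measured 34.3, 38.6 and 36.5 FPKM in KO and 33.9, 33.7 and 30.2 FPKM in WT (0.16, SE 0.0702). The unadjusted p was 0.0447 to 0.0528 in these 3 genes and the limma adjusted p 0.924.

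The log2 difference also varied with transcript length. This bears on the lists of short transcripts more than on the lysosome and proton pump list, whose median length was 1335.5 bases, against 1297.5 for all genes. In the 2327 tested genes with the shortest transcripts (64 to 777 bases), 62.5% of log2 differences were above 0 (median 0.03), and in the 2320 with the longest (from 2322 bases) 31.1% were (median -0.04). By library, the shortest transcripts had their highest median deviation in KO mouse 528 (0.06) and their lowest in WT mouse 531 (-0.03). The oxidative phosphorylation list, with a median length of 595.5 bases, had median deviations of 0.03, 0.20 and -0.04 in KO mice 481, 528 and 532 and -0.02, -0.05 and -0.15 in WT mice 480, 529 and 531. KO mouse 532 thus lay below WT mouse 480. After removal of the dependence on length within each library, its median was 0.11 with 73 of 73 still above 0, and that of the proton pump was 0.10. Leaving out each library in turn gave oxidative phosphorylation medians of 0.06 to 0.19, the smallest being that without KO mouse 528.

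**Figure D4:**
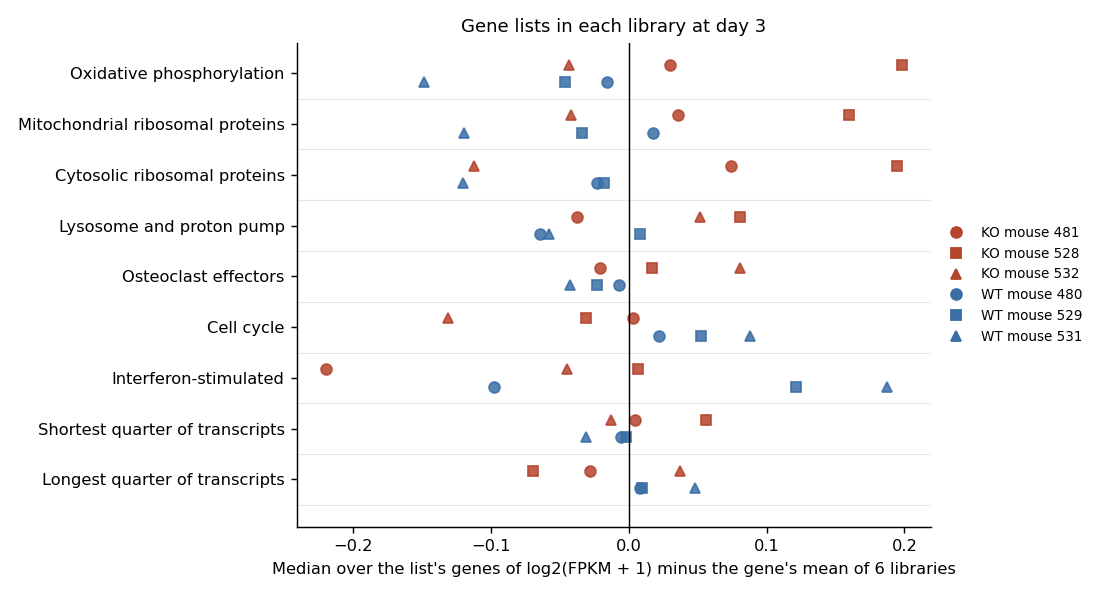
Median deviation of each list's genes from their mean over the 6 libraries (log2 scale) in every day 3 library, KO above WT in each row, with the genes of the shortest and longest transcripts in the lowest rows. KO mouse 528 lies highest for oxidative phosphorylation (0.20) and WT mouse 531 lowest (-0.15), while the 3 KO libraries lie below the 3 WT libraries for the cell cycle.

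Cell cycle genes leaned the other way. Of 68 tested genes, 65 were below 0 in KO (median -0.10), 16 lay wholly below WT (23.5%, against 3.26% of all genes) and none wholly above (4.05% of all genes), and none passed the test. Among genes of mitosis 34 of 34 were below 0 and 12 wholly below WT (median -0.13, down to -0.25 for the proliferation marker Mki67), and among genes of DNA replication 23 of 26 were below 0 and 2 wholly below (median -0.07). The difference between those subsets was not tested. Foxm1, the transcription factor of mitotic genes, measured 8.03, 6.73 and 8.16 FPKM in KO and 9.13, 8.96 and 9.32 FPKM in WT (-0.23, SE 0.0804, unadjusted p = 0.0176, limma adjusted p = 0.924). Plk1, a mitotic kinase, measured 16.2, 17.4 and 17.3 FPKM in KO and 18.8, 19.7 and 19.0 FPKM in WT (-0.17, SE 0.0599). Kif11, the spindle motor, measured 10.3, 10.1 and 9.26 FPKM in KO and 10.9 to 12.7 FPKM in WT (-0.20, SE 0.0778). E2f8, a repressor of the E2F family, measured 5.95, 5.08 and 5.34 FPKM in KO and 6.03, 6.53 and 7.19 FPKM in WT (-0.23, SE 0.0852).

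In the list as a whole the KO libraries had median deviations of 0.00, -0.03 and -0.13 (mice 481, 528 and 532) and the WT libraries 0.02, 0.05 and 0.09 (mice 480, 529 and 531). These do not overlap, although KO mouse 481 and WT mouse 480 were close. The length-corrected median was -0.11. Leaving out each library in turn gave medians of -0.14 to -0.06, the smallest being that without KO mouse 532. By day, the median over these 68 genes was 0.26 before RANKL with 66 above 0, -0.10 at day 2 with 68 of 68 below 0, -0.10 at day 3 and 0.03 at day 4 with 47 above 0. The oxidative phosphorylation median was -0.20 before RANKL, 0.02 at day 2, 0.13 at day 3 and 0.06 at day 4, where 72 of 73 were above 0. The libraries of each day come from the same 6 mice.

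**Figure D5:**
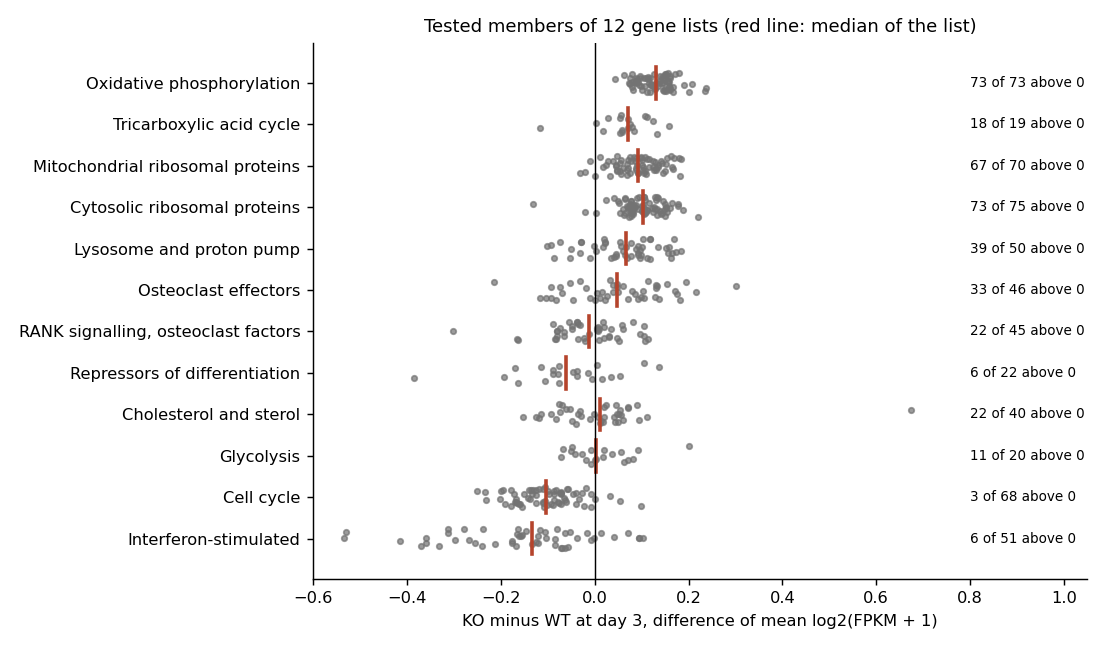
Log2 difference (KO minus WT at day 3) of each tested member of 12 gene lists, 1 point per gene, with red lines for list medians and the vertical line at 0. All 73 oxidative phosphorylation genes lie right of 0 and 65 of 68 cell cycle genes left of it, and the point at 0.67 in the sterol row is Stard4.

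Sterol genes other than Stard4 showed no such leaning. Of 40 tested cholesterol and sterol genes, 22 were above and 18 below 0 (median 0.01), 1 rose, which was Stard4, and no other member had its groups apart. The sterol synthesis enzymes were above 0 for 13 of 18 and lay between -0.08 and 0.10. Fasn, fatty acid synthase, measured 8.28, 6.55 and 7.25 FPKM in KO and 8.21, 8.12 and 8.47 FPKM in WT (-0.15, SE 0.0845). Stress, chaperone, antioxidant, metallothionein and iron, MHC and immediate early genes had list medians between -0.04 and 0.03, with no member past the threshold.

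Apart from the genes named so far, the smallest p-values among genes with higher KO means belonged to Dusp14, Steap4, Stap2, Hes6, Klra17 and the pseudogene Rps19-ps3, and among those with lower KO means to Mndal, Slc23a2, Ugcg, Dnmbp and Crebbp. Unnamed gene models were left out of this ranking. None passed (limma adjusted p = 0.924 each), and in each the KO and WT libraries did not overlap. Dusp14, a phosphatase of MAP kinases, measured 3.43, 3.62 and 3.83 FPKM in KO and 2.62, 2.55 and 2.46 FPKM in WT (log2 difference 0.39, SE 0.0743, unadjusted p = 0.000604). Steap4, a metalloreductase of iron and copper, measured 27.7, 30.0 and 28.8 FPKM in KO and 22.8, 24.3 and 23.4 FPKM in WT (0.28, SE 0.0597, unadjusted p = 0.00111). Dusp14 had log2 differences of -0.07 before RANKL, -0.01 at day 2 and 0.35 at day 4, and Steap4 of 0.04, 0.27 and 0.16.

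Of those with lower KO means, Mndal, an interferon-inducible PYHIN protein gene, measured 2.09, 2.98 and 2.71 FPKM in KO and 3.11, 4.35 and 4.35 FPKM in WT (-0.46, SE 0.132, unadjusted p = 0.00739). Crebbp, a histone acetyltransferase and coactivator, measured 2.52, 2.01 and 3.01 FPKM in KO and 3.39, 3.23 and 3.78 FPKM in WT (-0.36, SE 0.112). Slc23a2, a vitamin C transporter, measured 5.87, 5.77 and 5.97 FPKM in KO and 6.76, 6.92 and 7.66 FPKM in WT (-0.24, SE 0.0708). Ugcg, glucosylceramide synthase, measured 2.28, 2.16 and 1.99 FPKM in KO and 2.75, 2.66 and 2.80 FPKM in WT (-0.25, SE 0.0765).

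Whether the KO minus WT difference at day 3 differed from that of another day was tested across 10081 genes in a fit of all 24 libraries. Day 0 differs from day 3 in RANKL, in mCSF (40 against 20 ng/mL) and in time, which cannot be told apart here. Against day 0, 7 genes passed (0.0694%), and 787 had an unadjusted p under 0.05 (7.81%). The 7 were Sting1, Gm8615, Ifit3, Rsad2, Mx1, Usp18 and the unnamed gene model I830012O16Rik. Against day 2 and against day 4 none passed (0% each), with 30 (0.298%) and 32 (0.317%) genes at an unadjusted limma p under 0.05, and none passed there with the mouse as a replicate block or with samples weighted by day. In simulated data the 24-library test against day 0 recovered only 9 of 50 genes changed by 0.5 (log2). The absence of calls therefore does not show that day 3 matched days 2 and 4. The pair of Sting1 values set out above gave a change of 1.91 (SE 0.172, limma adjusted p = 4.66e-06), so its gap was narrower at day 3 than before RANKL.

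Ifit3, an antiviral protein that binds Ifit1, measured 0.159, 0.167 and 0.118 FPKM in KO and 0.16, 0.251 and 0.499 FPKM in WT at day 3. Before RANKL it had measured 1.38, 1.67 and 1.75 FPKM in KO and 15.4, 7.33 and 9.63 FPKM in WT. At day 3 its groups overlapped at under 0.5 FPKM, and the change of the difference was 1.95 (SE 0.254, limma adjusted p = 0.000663). Rsad2, viperin, measured 0.263, 0.417 and 0.284 FPKM in KO and 0.31, 0.446 and 0.751 FPKM in WT at day 3, against 1.33, 2.57 and 2.98 FPKM in KO and 13.4, 10.3 and 13.4 FPKM in WT before RANKL (1.87, SE 0.257, limma adjusted p = 0.00111). Usp18, which removes Isg15 from its targets, changed by 1.46 (SE 0.249, limma adjusted p = 0.015) and Mx1, an antiviral GTPase, by 0.95 (SE 0.161, limma adjusted p = 0.015). Ifit3, Rsad2, Usp18, Mx1 and I830012O16Rik were below the filter at day 3 in both genotypes. Gm8615 was the gene whose difference was smaller at day 3 while KO stayed higher, by -1.13 (SE 0.122, limma adjusted p = 4.81e-05). With the mouse as a replicate block 11 genes passed against day 0, the other 4 being Oasl1, Tor3a, Mx2 and Ifit1. With a pseudocount of 0.1 in place of 1, only Sting1 and Gm8615 passed, and Ifit3, Rsad2, Usp18, Mx1 and I830012O16Rik did not (limma adjusted p = 0.626 each). Usp18 also missed the threshold without any 1 of mice 480, 481, 528 or 532 (limma adjusted p = 0.084 to 0.194), Mx1 without 480, 481, 528 or 531 (0.0941 to 0.351) and I830012O16Rik without 481, 528, 531 or 532 (0.11 to 0.627).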

How the data were processed

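RNA-seq was run on 24 libraries in 8 groups of genotype and day, of which 6 are compared here. Per the labels, total RNA was extracted from pooled wells, and per the submitters' processing notes the authors used Cuffdiff, Cufflinks 2.2.1 and HISAT2 2.0.5 with mm10. They deposited FPKM values of 10721 genes in 1 table of "sig" genes, as its name has it. How those genes were chosen, which annotation was used and whether strand counted is not given, and 0 value columns were left unused. FPKM hold no counts, so depth is unknown, counting intervals are not given and an exact 0 can be a failed estimate.

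Genes with a mean of at least 1 FPKM in either group entered as log2(FPKM + 1) into limma 3.58.1 (R 4.3.3, mean-variance trend, 4 residual degrees of freedom), fitted on the 6 libraries alone. Two-sided p-values were corrected by Benjamini-Hochberg over all 9360 genes, with a threshold of 0.05. They set the KO minus WT difference against the spread between libraries, 1 per mouse, moderated across genes. Differences between days were tested in 1 fit of 24 libraries. That fit treats libraries of the same mouse as independent, except where the mouse is a replicate block. Lists are described by counts and medians. The comparison, its members and the lists were chosen with earlier results of these data known, so no list is independent evidence.

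The text names Sting1, the genes past the threshold, the 8 smallest p-values in each direction, members of each list among its 4 smallest p-values, 12 osteoclast genes, and Gm8615, Gnpda1, Stard4 and Arap3. Unnamed gene models were skipped when the 8 in each direction were taken. Genes of the test between days, genes called under an alternative, and Mki67 as the lowest of its subset were named after their values were seen, and the subsets of lists were drawn up then too. Alternatives were a pseudocount of 0.1, no filter, a filter of 5 FPKM, median scaling, no trend, all 24 libraries, the mouse as replicate block, weights by day, neighbouring mouse numbers as a batch, and each library left out. A correction for transcript length and the omission of transcripts under 200 bases were added after seeing the data.

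The fit was tested on simulated data for these 9360 genes, with moderated spreads and genes drawn independently. It recovered 4 of 50 genes changed by 0.25 (log2), 47 of 50 changed by 0.5 and 50 of 50 changed by 1, and 12 calls were false. With 200 changed genes planted, the corrected threshold is easier to pass than in the real fit. There only 3 genes passed, and the smallest passing log2 difference was 0.67. The recovery at 0.5 therefore does not show that genes not called lack changes of that size. The 24-library test of day 3 against day 0, simulated likewise for 10081 genes, was less sensitive. It recovered 1 of 50 changed by 0.25, 9 of 50 by 0.5 and 43 of 50 by 1, with 6 false calls. The mouse numbers pair libraries across days by animal. Across genes, same-mouse deviations from the group means correlated at a median of 0.261 in KO (17 of 18 pairs over 0.1) and 0.136 in WT (10 of 18 pairs). Positions and promoters are from RefSeq (GRCm38) with 99.3% of genes matched, transcripts from GENCODE vM21 (GRCm38) and identity from blastn 2.17.0.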

Additional observations from a re-analysis of the deposited data

Results flagged for a closer look

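Each of the following was singled out because the KO minus WT difference at day 3 differed from that before RANKL by limma's test of the difference itself. Sting1, listed as Tmem173, changed by 1.91 on the log2 scale (limma adjusted p = 4.66e-06), with KO below WT at day 3 by less than before RANKL. Ifit3 changed by 1.95 (adjusted p = 0.000663), Rsad2 by 1.87 (0.00111), Usp18 by 1.46 (0.015), Mx1 by 0.95 (0.015) and I830012O16Rik by 0.98 (limma adjusted p = 0.0468), all with a narrower KO deficit at day 3, where these 5 genes lay below 1 FPKM in all 6 libraries. Gm8615 changed by -1.13 (limma adjusted p = 4.81e-05), with a smaller KO excess at day 3. Weighting samples by day also gave 7 genes, with Mx2 in place of Usp18. With a pseudocount of 0.1 only Sting1 and Gm8615 passed, and the other 5 genes each had a limma adjusted p of 0.626.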

How the results depend on the processing

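Of 2151 recomputed values for the 129 named genes, 2113 kept direction and side of the threshold, 11 lost the call (Stard4 and Mir221 only) and 27 in 12 genes changed sign. The count of genes past the threshold was 1 with all 24 libraries and 1 with the mouse as replicate block, Gm8615 each time, and 2 to 3 leaving out each library. KO and WT share no mouse, so the block is by mouse across days. With neighbouring mouse numbers as a batch within day 3, which the labels do not give as a pairing, the same 3 genes passed and 693 had an unadjusted p under 0.05. Median scaling moved the median of all genes to 0.01. The median of RANK signalling genes was -0.0449 to 0.00594 leaving out each library. The Sting1 neighbours' median was 0.0326 with a filter at 5 FPKM and 0.0308 with median scaling. Against day 0, 2 genes passed with a pseudocount of 0.1, 11 with the replicate block and 5 to 9 leaving out each mouse. Against day 2, and against day 4, 0 to 1 passed, the 1 being Cep250 without WT mouse 531. Sign changes without leaving out a library were those of Zbtb46 (0.00178 with median scaling, 0.0174 with length correction), Gnpda1 (0.00657 with median scaling, 0.00504 with length correction) and Nfatc1 (0.00644 with length correction). Leaving out each library, the log2 difference ran from -0.0325 to 0.128 for Atp6v0d2, -0.118 to 0.0222 for Cd74, -0.0378 to 0.074 for Clcn7, -0.179 to 0.109 for Dcn, -0.100 to 0.053 for Gnpda1, -0.19 to 0.0365 for Itgax, -0.159 to 0.583 for Lcn2, -0.0963 to 0.318 for Mpo, -0.142 to 0.0382 for Nfatc1, -0.369 to 0.147 for Pf4, -0.0961 to 0.579 for S100a9 and -0.0636 to 0.0306 for Zbtb46.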

Other observations

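Some transcripts were listed at 0 in part of the libraries and decided calls under single alternatives. Snord37, a small nucleolar RNA of 64 bases, was listed at 0 in all 3 KO libraries and at 3063, 0 and 8906 FPKM in WT mice 480, 529 and 531, and it passed the test only without WT mouse 529 (limma adjusted p = 4.07e-06). Cep250, a centrosome protein gene, measured 6.92, 6.41 and 6.91 FPKM in KO libraries and 0, 0 and 7.49 FPKM in WT libraries, and it passed only without WT mouse 531 (limma adjusted p = 6e-06). Gm9781 on chromosome 18, which had the lowest log2 difference within 10 Mb of Sting1 (-0.64), measured 12.7, 11.3 and 5.14 FPKM in KO libraries and 14.0, 14.5 and 15.8 FPKM in WT libraries, so KO mouse 532 stood apart. These 3 genes were chosen after their values were seen.

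Neutrophil markers varied between mice more than between genotypes. S100a9 measured 76.4, 42.1 and 37.5 FPKM in KO mice 481, 528 and 532 and 70.8, 39.5 and 27.1 FPKM in WT mice 480, 529 and 531. Deviations of KO mouse 481 and WT mouse 480 from their group means had a correlation of 0.339 across genes, against 0.013 for KO mouse 528 with WT mouse 529 and 0.054 for KO mouse 532 with WT mouse 531.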
